A study of Mus musculus with 18 samples.

Results

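Of the 27392 regions of the nuclear genome in an ATAC-seq count table of mouse spleen, 873 (3.19%) were far intergenic. They overlapped no protein-coding or lncRNA gene and were more than 50 kb from the nearest end of any such gene. They were chosen by position alone, from the region names and a RefSeq gene table of GRCm38.p6, which shares its coordinates with the mm10 build of the file. The 4 regions of the mitochondrial chromosome were left out, and the remaining regions comprised 21249 that overlapped a gene and 5270 that were intergenic within 50 kb of a gene. The table covered 18 libraries from spleens of C57BL/6J wild-type mice, made from frozen sections that were tagmented in place, immunostained and dissected by laser capture. B cell areas and T cell areas were each taken as 10 patches, about 1000 nuclei in all (n = 5 libraries each), and B cells and T cells were also taken as 100 individually cut nuclei (n = 4 libraries each). No group carried a treatment or a transgene. The age and number of the mice and the antibodies used for staining are not given in the sources at hand.

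The design calls the libraries of a group technical replicates and no label ties a library to an animal. Libraries may therefore share an animal, all p-values describe only the spread between these captures, and as statements about animals they come out too small. The total count was 2193837 to 7343204 in the patch libraries and 319481 to 1076765 in the libraries of 100 nuclei. The regions within 50 kb of 7 B cell marker genes, among them Cd79a, Ms4a1 and Pax5, held 0.168 to 0.221% of the nuclear counts of B patches, against 0.0782 to 0.104% in T patches. The regions within 50 kb of 10 T cell marker genes, among them Cd3e, Cd4 and Lck, held 0.136 to 0.205% in B patches, against 0.266 to 0.308% in T patches. Neither marker set was at 0 in the opposite patches, and regions within 50 kb of a marker can belong to a neighbouring gene. A lower count in a capture that can hold several cell types can mean fewer nuclei with open chromatin or less opening per nucleus, and these cannot be told apart.

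ATAC-seq uses a transposase that cuts and tags DNA where it is not wrapped around nucleosomes, so that reads mark open chromatin. Open regions far from genes often are enhancers, stretches bound by transcription factors that can act on a promoter over long distances, or sites that organise chromatin loops. In lymphocytes, several genes that set B or T cell identity sit beside wide gene-poor stretches, and the antigen receptor loci hold long arrays of V segments with regulatory elements of their own. A flanking gene is given here as a landmark of position, which does not say that a region acts on that gene.

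The start sites of 3 flanking genes are shown because each was itself covered by a region of the table, so that the far region and the promoter can be set side by side. Each line gives the 250 bases before the start site, 5′ to 3′ on the gene's strand, from RefSeq (GRCm38.p6). They are chr1:128592300-128592549 (minus strand) for Cxcr4, chr17:51833291-51833540 (minus strand) for Satb1 and chr2:11172132-11172381 (plus strand) for Prkcq. Capitals mark matches on either strand to the CCAAT box (CCAAT), the GC box (GGGCGG) and the TATA box (TATAAA), which 33.8%, 32.7% and 12.4% of 32851 RefSeq windows of the same length hold.
Cxcr4: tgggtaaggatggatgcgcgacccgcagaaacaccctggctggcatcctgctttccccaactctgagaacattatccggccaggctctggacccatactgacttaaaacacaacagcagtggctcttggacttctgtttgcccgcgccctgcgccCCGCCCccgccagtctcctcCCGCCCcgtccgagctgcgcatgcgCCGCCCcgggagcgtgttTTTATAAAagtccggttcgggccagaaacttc
Satb1: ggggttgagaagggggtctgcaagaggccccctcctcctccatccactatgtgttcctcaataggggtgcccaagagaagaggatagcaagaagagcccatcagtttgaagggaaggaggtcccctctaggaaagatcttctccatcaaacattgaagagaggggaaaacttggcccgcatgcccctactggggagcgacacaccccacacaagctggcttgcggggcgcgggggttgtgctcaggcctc
Prkcq: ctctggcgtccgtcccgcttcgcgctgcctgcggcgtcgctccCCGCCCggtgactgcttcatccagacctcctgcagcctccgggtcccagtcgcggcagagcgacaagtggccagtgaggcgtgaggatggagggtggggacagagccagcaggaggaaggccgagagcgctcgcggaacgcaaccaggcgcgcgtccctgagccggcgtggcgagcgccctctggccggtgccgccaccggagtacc
The Cxcr4 window had 3 GC box matches and 2 TATA box matches, which overlap on opposite strands. The Prkcq window had 1 GC box match. The Satb1 window had no match to the 3 motifs.

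The 873 far intergenic regions had a median distance of 107.3 kb to the nearest protein-coding or lncRNA gene, with quartiles of 69.8 and 217.5 kb and a maximum of 1530 kb. The nearest lay at 50.109 kb, just past the limit, and the closest region left out lay at 49.929 kb. They were narrow, with a median width of 124 bases, against 152 bases for intergenic regions nearer to genes and 223 bases for regions overlapping a gene. Their median level per kb of width was 38.5 normalized CPM (counts relative to library size, scaled between libraries) in patches, against 59.6 and 75.5 in those 2 classes. Reads in all 10 patch libraries were found for 138 of them (15.8%), against 50.3% of all 27396 regions. They were thus narrower and lower on average than regions nearer to genes, a difference that was described and not tested. In all, 624 (71.5%) had enough counts to be tested, against 93.9% of all regions, and the 249 that were not tested had a median of 118 counts summed over the 10 patch libraries.

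Most stood alone. Joined wherever gaps were at most 25 kb, they formed 703 groups, of which 599 were single regions, 71 were pairs and 33 held at least 3 regions. Some overlapped annotated features that are neither protein-coding nor lncRNA genes. There were 69 such regions, which included 19 at V segments of antigen receptors, 16 at pseudogenes and 1 at a tRNA gene, and none overlapped a miRNA. Counting genes of every type in the RefSeq table, 557 of the 873 were still more than 50 kb from a gene.

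Between B patches and T patches, 27 far intergenic regions differed: 14 were higher in B patches and 13 were higher in T patches. This was 4.33% of the 624 tested (2.24% higher in B patches and 2.08% higher in T patches), against a background of 2.27% of all 25712 tested regions (1.22% higher in B patches and 1.05% higher in T patches). The called share was 3.54% among intergenic regions nearer to genes and 1.9% among regions overlapping a gene. The difference between these shares was not tested. Calls used edgeR's quasi-likelihood test with Benjamini-Hochberg adjustment over all tested regions at 0.05, and fold changes below are log2 of B over T patches ± SE. The 5 libraries of B patches and the 5 of T patches did not overlap in normalized CPM at 89 far intergenic regions (14.3%), against a background of 8.03%. Of these, 53 were higher in B patches (8.49%, background 4.33%) and 36 were higher in T patches (5.77%, background 3.69%). The median fold change was -0.07 over far intergenic regions and -0.03 over all tested regions. DESeq2 called 90 of the 569 that it tested (15.8%), against 8.43% of all regions. A joint fit of all 18 libraries called 0, and 0% of all regions. With both patch libraries numbered 2 left out, an alternative chosen after seeing the data, 47 of 624 were called (7.53%), against 4.5% of all regions. The count was 14 without B patch library 1, 3 or 4 (2.24% of those tested, against 1.01, 1.13 and 1.03% of all regions). It was 15 without T patch library 3 (2.4%, against 1.06%). Of the 27 calls, 11 held without each library in turn.

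**Figure D1:**
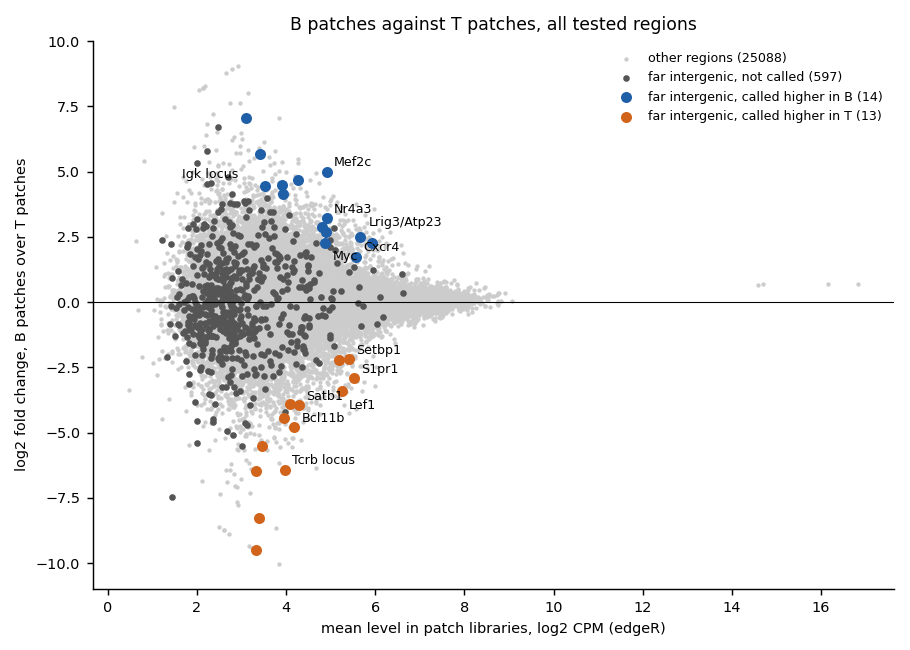
Each point is a tested region, with its mean level in the 10 patch libraries (log2 CPM) across and its log2 fold change of B patches over T patches up. The 14 blue and 13 orange points are the far intergenic regions called higher in B patches and in T patches, 12 of them with a flanking gene or locus, grey points are the other regions, and the 4 points at the far right are mitochondrial.

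The called regions were wider than the rest, with a median of 305 bases, against 139 bases for tested regions that were not called. Their median distance to a gene was 94.8 kb. By distance, 15 of 330 tested regions at 50 to 100 kb were called (4.55%), 9 of 143 at 100 to 200 kb (6.29%), 2 of 115 at 200 to 500 kb (1.74%) and 1 of 36 beyond 500 kb (2.78%). Calls were therefore present in every distance class, and no order by distance was tested. The call beyond 500 kb, at 556.1 kb, lay inside the kappa light chain locus Igk, where V segments do not count as genes here. The adjusted p of the call nearest to the threshold was 0.046, and that of the closest region outside was 0.0518.

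The regions higher in T patches were led by a region beside S1pr1, the receptor for sphingosine 1-phosphate that guides lymphocytes out of lymphoid organs. It lay at chr3:115815593-115815963, 100.5 kb from S1pr1 and 72.2 kb from Dph5. B patch libraries 1 to 5 had 7.05, 10.6, 15.1, 9.69 and 11.1 normalized CPM, against 75, 85.2, 71.1, 103 and 68.9 normalized CPM in T patch libraries 1 to 5. Every T patch library was more than 4 times as high as any B patch library. The log2 fold change was -2.91 ± 0.38 (adjusted p = 0.00104), and the call held in each of the 10 fits that left out 1 library. Of the 8 far intergenic regions of this interval, all tested, this was the called one, and 3 of the other 7 had positive fold changes of up to 1.12.

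A region beside Lef1, which encodes a transcription factor of the Wnt pathway needed in early T cells, lay at chr3:130947221-130947618, 162.7 kb from Lef1. It had 5.1, 1.84, 5.44, 15.1 and 4.65 normalized CPM in B patch libraries 1 to 5, against 54.4, 88.4, 54.4, 107 and 40.5 in T patch libraries 1 to 5. The groups were well apart, with B patch library 4 the highest of the B patches. The log2 fold change was -3.41 ± 0.53 (adjusted p = 0.00315), and the call held without each library in turn. A second region nearer to Lef1, at chr3:131019172-131019872 and 90.4 kb away, was among the highest far intergenic regions. It averaged 73.1 ± 16.7 normalized CPM over the B patches, against 63.8 ± 10.2 over the T patches (SD, n = 5 each), with a log2 fold change of 0.20 ± 0.29 (adjusted p = 0.913). Both regions lay on the same side of Lef1, and the difference between their fold changes was not tested. At Lef1 itself, 6 regions were tested, all 6 had negative fold changes and 2 were called higher in T patches.

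A pair of called regions lay between Gm52008 and Bcl11b, a zinc finger factor required for T cell commitment. Gm52008 was much the nearer gene, 72.4 and 71.2 kb from the regions in the order given below. The first, at chr12:107184530-107184848 and 725.6 kb from Bcl11b, had 1.35, 1.1, 0.209, 1.13 and 2.16 normalized CPM in B patch libraries 1 to 5, against 27.7, 37, 27.5, 50.9 and 28.7 in T patch libraries 1 to 5. All B patch libraries were near 0 and all T patch libraries were above 27. Its log2 fold change was -4.80 ± 0.76 (adjusted p = 0.00348), and the call held without each library in turn. The second, 726.8 kb from Bcl11b at chr12:107183358-107183607, averaged 12.6 ± 8.84 normalized CPM in B patches and 59.5 ± 30.6 in T patches, with a log2 fold change of -2.22 ± 0.58 (adjusted p = 0.046). This was the only called region whose groups overlapped: B patch library 1 had 24.2 and T patch library 1 had 21.6 normalized CPM. Its call held in 2 of the 10 fits that left out 1 library. None of the 5 regions at Bcl11b itself was called, though all 5 had negative fold changes with a median of -2.08.

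3 more genes of the T lineage had a called region beside them, each higher in T patches. The region at chr17:52468446-52468829, 635.2 kb from Satb1, a chromatin organiser of thymocytes, had 2.4, 0, 7.95, 0 and 0.996 normalized CPM in B patch libraries 1 to 5, against 29.2, 37.4, 45.2, 26.1 and 42.9 in T patch libraries 1 to 5 (log2 fold change -3.95 ± 0.94, adjusted p = 0.0287). Kcnh8, a potassium channel gene, was nearer to it, at 133.9 kb. The region at chr4:7455094-7455506, 463.5 kb from Tox, which encodes an HMG-box factor of T cell development, averaged 1.97 ± 1.88 normalized CPM in B patches and 30.9 ± 17.7 in T patches (-3.92 ± 0.97, adjusted p = 0.0364). The region at chr2:11118807-11118935, 53 kb from Prkcq, the protein kinase C that acts below the T cell receptor, had reads in 1 of 5 B patch libraries, library 5, at 1.99 normalized CPM. T patch libraries 1 to 5 had 25.9, 28.9, 3.05, 37.6 and 8 normalized CPM there (-5.51 ± 1.39, adjusted p = 0.0398). In all 3, every T patch library was above every B patch library. The calls at Satb1, Tox and Prkcq held in 3, 2 and 2 of the 10 fits that left out 1 library, with adjusted p of up to 0.0885, 0.119 and 0.124. At Tox itself, 1 of 6 tested regions was called, higher in B patches and so of opposite sign to the far region, and 4 of the 6 had negative fold changes. At Satb1 itself, none of 5 tested regions was called and 3 had negative fold changes, and at Prkcq itself none of 6 was called and all 6 had negative fold changes.

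Over a list of 47 genes of the T lineage, 9 flanked 30 far intergenic regions. Of the 24 tested, 7 were called higher in T patches (29.2%, background 1.05%), the 7 just given. None was called higher in B patches, and 18 had negative fold changes. Their median fold change was -1.26, beside -0.03 over all tested regions. Regions near Gata3, Cd28 and Icos were among the 30 and none passed the test, with fold changes of -1.97 to -0.99 in the 3 that were tested.

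The other regions called higher in T patches lay beside genes with no list entry. At Setbp1, which encodes a protein that binds the oncoprotein SET, the interval next to the gene held 7 far intergenic regions, of which 6 were tested and all 6 had negative fold changes. The region at chr18:79257068-79257322, 146.6 kb from Setbp1, had 7.35, 33.8, 7.74, 13.8 and 13.4 normalized CPM in B patch libraries 1 to 5, against 41.7, 157, 60.5, 47.6 and 35.6 in T patch libraries 1 to 5 (-2.18 ± 0.52, adjusted p = 0.0283). Library 2 was the highest in both groups, and B patch library 2 came close to T patch library 5. The region at chr18:79293705-79293911, 183.3 kb from Setbp1, averaged 1.25 ± 1.73 normalized CPM in B patches and 29.2 ± 18.9 in T patches (-4.43 ± 1.11, adjusted p = 0.0378). With both libraries numbered 2 left out, the call at 183.3 kb was lost, and the calls held in 4 and 2 of the 10 fits that left out 1 library. The 7 regions at Setbp1 itself all had positive fold changes, with a median of 2.14, and none was called.

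At 3 narrow regions, B patches had almost no reads. The region at chr1:39102256-39102380, between Pdcl3 and Npas2, had no reads in any B patch library and 24.9, 3.22, 15.5, 35.1 and 17.3 normalized CPM in T patch libraries 1 to 5. Against the limit of 3 counts over the B patches, it was at least 161-fold higher in T patches (adjusted p = 0.00566). The region at chr1:193421509-193421646, 51.2 kb from Camk1g, a calmodulin-dependent kinase gene, had 1 count in B patches, in library 5, and 399 counts in T patches, a ratio of T to B patches of 438 with a 95% counting interval of 78.1 to 17323 (adjusted p = 0.00396). The region at chr6:50009411-50009603, 179.9 kb from Npy, the neuropeptide Y gene, and 100.6 kb from Mpp6, averaged 0.171 ± 0.205 normalized CPM in B patches and 19 ± 7.62 in T patches (-6.47 ± 1.23, adjusted p = 0.00826). All 3 calls held without each library in turn. Counting intervals cover counting error only, since reads carried no stated molecular identifiers.

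Among the regions higher in B patches, the clearest interval was that beside Mef2c, which encodes a MADS-box transcription factor of B cells and muscle. The region at chr13:83020913-83021307, 482.7 kb from Mef2c, had 86.8, 56.2, 30.1, 85.7 and 28.4 normalized CPM in B patch libraries 1 to 5, against 0, 0, 0, 2.51 and 6.22 in T patch libraries 1 to 5. The lowest B patch library was more than 4 times as high as the highest T patch library. The log2 fold change was 5.0 ± 0.96 (adjusted p = 0.00833), and the call held without each library in turn. The interval held 6 far intergenic regions, all tested, and all 6 had positive fold changes, from 0.62 to 5.0. The next of them, at chr13:82909195-82909490 and 594.5 kb from Mef2c, averaged 21.4 ± 11.4 normalized CPM in B patches and 1.32 ± 2.68 in T patches but was not called (4.0 ± 1.23, adjusted p = 0.1). At Mef2c itself, all 9 tested regions had positive fold changes and 3 were called higher in B patches.

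**Figure D2:**
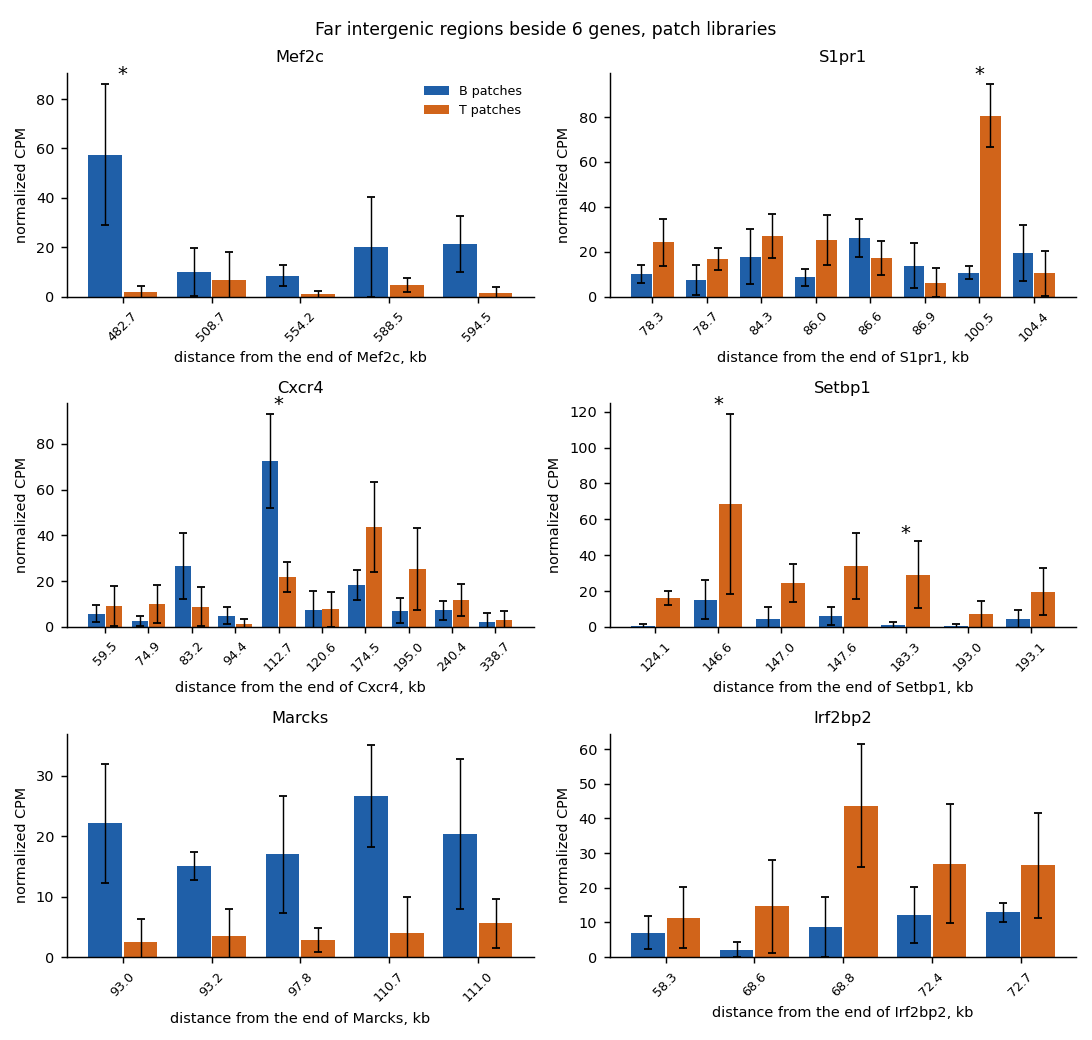
Bars are mean normalized CPM ± SD over 5 B patch libraries (blue) and 5 T patch libraries (orange) at the far intergenic regions beside 6 genes, ordered by distance in kb from the gene's end and not drawn to distance, with 1 region beyond 1000 kb left out at Mef2c and 1 at Marcks. Stars mark the called regions, which are the region at 482.7 kb from Mef2c, that at 100.5 kb from S1pr1, that at 112.7 kb from Cxcr4, and those at 146.6 and 183.3 kb from Setbp1.

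Genes that B and T cells share also had called regions beside them, and all 3 calls were higher in B patches. Over all tested regions beside such genes, 17 had positive and 15 had negative fold changes. At Cxcr4, the receptor for the chemokine CXCL12, the region at chr1:128705040-128705518, 112.7 kb from the gene, had 54, 96.2, 81.5, 82.5 and 48 normalized CPM in B patch libraries 1 to 5, against 32.5, 16.9, 18.8, 17.5 and 22.7 in T patch libraries 1 to 5. The lowest B patch library, at 48, stood above the highest T patch library, at 32.5. The log2 fold change was 1.74 ± 0.37 (adjusted p = 0.0155), and the call was lost without B patch library 4 (adjusted p = 0.0503). The interval between Cxcr4 and Thsd7b held 10 far intergenic regions, of which 9 were tested, 3 had positive and 6 had negative fold changes. The region at 174.5 kb, chr1:128766788-128767294, averaged 18.4 ± 6.56 normalized CPM in B patches and 43.7 ± 19.8 in T patches, a difference that did not pass the test (-1.25 ± 0.47, adjusted p = 0.21).

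Beside Myc, which encodes a transcription factor of cell growth and division, the intervals on both sides held 13 far intergenic regions. The 12 tested were mixed, with fold changes of -3.92 to 3.51 and a median of 0.73. Between A1bg and Myc, 8 were tested, of which 5 had positive and 3 had negative fold changes. The called one, at chr15:61441735-61442040, lay 520.5 kb from A1bg and 543.3 kb from Myc. It had 38.9, 41.1, 55.2, 66 and 38.2 normalized CPM in B patch libraries 1 to 5, against 14.7, 2.41, 6.22, 13.8 and 12.9 in T patch libraries 1 to 5 (2.25 ± 0.53, adjusted p = 0.028). The groups were apart, and the call held in 5 of the 10 fits that left out 1 library. A region at 444 kb, chr15:61540723-61541338, was among the highest of all, at 85.5 ± 18.8 normalized CPM in B patches and 36.8 ± 25.7 in T patches, and was not called (1.22 ± 0.39, adjusted p = 0.123). On the opposite side of Myc, the region at chr15:62431220-62431449 averaged 19.2 ± 2.96 normalized CPM in B patches and 1.64 ± 2.46 in T patches and was not called (3.51 ± 1.08, adjusted p = 0.1). The other regions on that side had fold changes of -2.47 to 0.48.

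Ets1 encodes an ETS family factor used by both B and T cells. The region at chr9:33475244-33475375, 717.4 kb from Ets1, had 17, 31.2, 16.1, 7.89 and 9.8 normalized CPM in B patch libraries 1 to 5, and 2 counts in all in T patches, both in library 4. The ratio of B to T patches was 168, with a 95% counting interval of 46.3 to 1395 (adjusted p = 0.0134), and the call held without each library in turn. A second region of this interval, at chr9:33483227-33483710, averaged 52.4 ± 15 normalized CPM in B patches and 10.3 ± 14.4 in T patches and was not called (2.38 ± 0.77, adjusted p = 0.122).

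Over the lists, 4 of 47 genes of the B lineage flanked 13 far intergenic regions: Mef2c, Bcl11a, Ebf1 and Bank1. Of the 12 tested, 1 was called, higher in B patches (8.33%, background 1.22%). Positive fold changes were found at 11, with a median of 2.11, beside -0.03 over all tested regions. The 4 regions beside Bcl11a, a zinc finger factor of early lymphoid cells, ran from 1.52 to 2.89, and the region beside Ebf1, a factor that sets B cell identity, stood at 3.17 ± 1.83 (adjusted p = 0.538). These did not pass the test singly. Of 36 regulators shared by lymphocytes, 9 flanked 35 regions, of which 32 were tested and 3 were called higher in B patches (9.38%, background 1.22%). Of the 32, 17 had positive and 15 had negative fold changes, with a median of 0.23, beside the same -0.03. Lists of markers of macrophages and monocytes, NK cells, neutrophils, and stroma and endothelium had no member that flanked a far intergenic region, and Siglech, of the dendritic cell list, flanked 1 that was not tested. The members and lists were chosen with results of these data known, so these counts are a description.

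Signal near marker genes of other cell types was read in the regions within 50 kb of the genes of those lists. Such regions can belong to neighbouring genes. Regions at the NK cell list held 0.0671 to 0.0824% of nuclear counts over the B patches and 0.0727 to 0.119% in T patches, and those at the macrophage and monocyte list held 0.137 to 0.201% and 0.145 to 0.17% in the same order. These lists had regions at 6 of 8 and 10 of 12 genes, with none at Ncr1, Gzma, Lyz2 and Vcam1. The B and T patches overlapped for both of them, and also for the dendritic cell, neutrophil, and stroma and endothelium lists. Their part in the results was not tested.

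9 further regions called higher in B patches lay beside genes in none of the lists. The region at chr4:47746649-47747145 lay 263.4 kb from Sec61b and 297.9 kb from Nr4a3, a nuclear receptor gene induced by antigen receptor signals. It was the most even, with 53.9, 58.7, 54.4, 49.1 and 51.1 normalized CPM in B patch libraries 1 to 5, against 6.1, 0, 5.69, 0.501 and 15.8 in T patch libraries 1 to 5 (3.22 ± 0.75, adjusted p = 0.0263). The region at chr10:126502058-126502827, between Lrig3 and Atp23 and 127.7 kb from the nearest protein-coding or lncRNA gene, averaged 85.3 ± 20.2 normalized CPM in B patches and 15.2 ± 13.4 in T patches (2.49 ± 0.47, adjusted p = 0.00826). The region at chr13:111935910-111936582, 117.6 kb from Map3k1, a kinase gene of the JNK pathway, averaged 99.4 ± 15.4 normalized CPM in B patches and 20.5 ± 11.9 in T patches (2.27 ± 0.56, adjusted p = 0.0362). The Lrig3 region kept its call in all 10 fits that left out 1 library, against 3 for the Nr4a3 region and 2 for the Map3k1 region.

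The others were lower in level. The region at chr14:68918725-68919011, between the metalloprotease gene Adam28 and the stanniocalcin gene Stc1, averaged 36.4 ± 10.2 normalized CPM in B patches and 1.29 ± 1.46 in T patches (4.69 ± 0.89, adjusted p = 0.00826), and its call held without each library in turn. The other 2 regions of that interval also had positive fold changes, 2.11 and 2.87, and were not called. Regions beside Snx2, a sorting nexin gene (chr18:53108302-53108622, 4.49 ± 0.93), the cadherin gene Cdh26 (chr2:178553843-178554040, 4.13 ± 0.89), the protocadherin gene Pcdh9 (chr14:94541947-94542386, 2.68 ± 0.62) and Kctd8, a subunit gene of GABA-B receptors (chr5:68735253-68735594, 2.88 ± 0.69) had adjusted p of 0.0132, 0.0173, 0.0265 and 0.0304 in that order. The region between Atp6v1g3 and Nek7 at chr1:138384219-138384373 had reads in 1 of 5 T patch libraries, library 5, and 4.77 to 39.2 normalized CPM in B patches (5.68 ± 1.37, adjusted p = 0.0319). In each of these, the 5 B patch libraries stood above the 5 T patch libraries. Of the 10 fits that left out 1 library, the calls beside Snx2, Cdh26, Pcdh9, Kctd8 and Nek7 held in 8, 7, 3, 4 and 3, and that beside Kctd8 was also lost with both libraries numbered 2 left out.

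**Figure D3:**
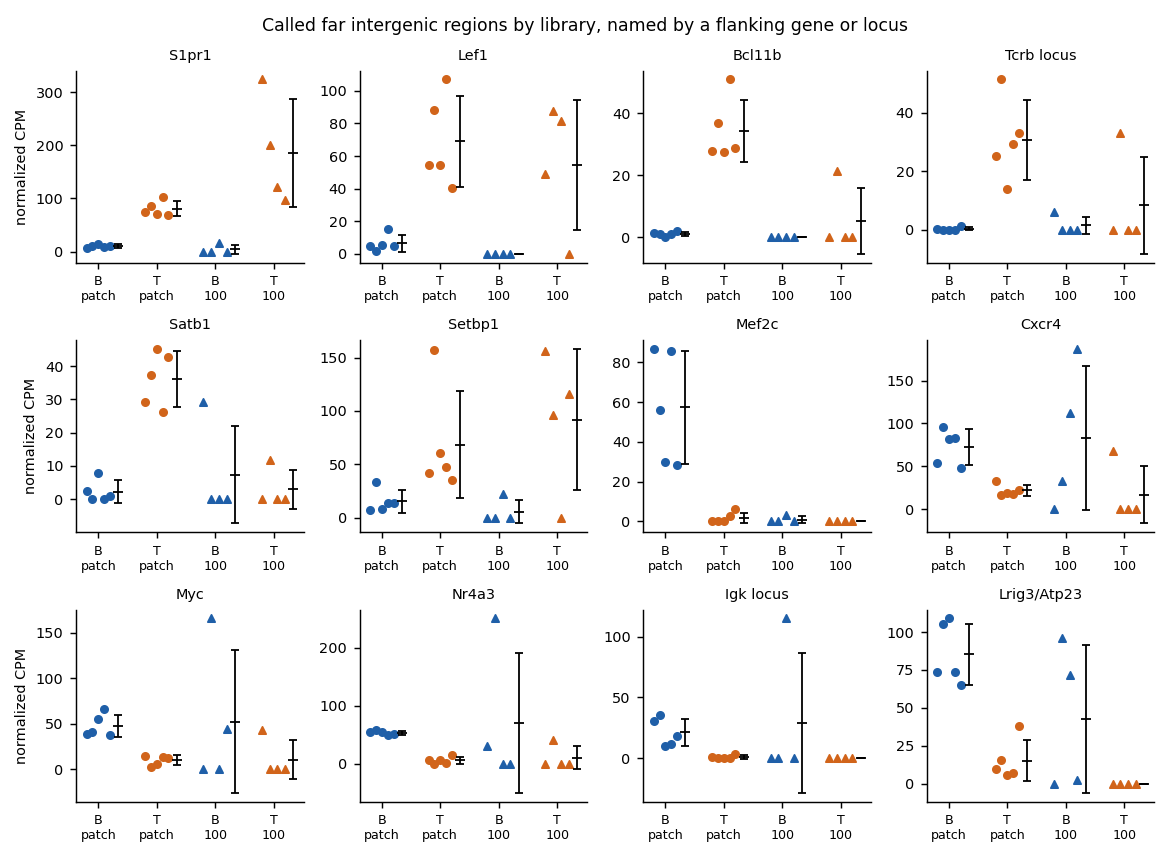
Normalized CPM of 12 called far intergenic regions in each of the 18 libraries, with mean ± SD in black: circles are patches, triangles are 100 nuclei, B is blue and T is orange. In patches the 5 B libraries and the 5 T libraries do not overlap in any panel, and at 100 nuclei many libraries sit at 0.

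Beyond the called regions, several clusters leaned to the same side throughout without a called member. In the largest clusters, 5 regions beside Marcks, a protein kinase C substrate gene, had fold changes of 1.87 to 3.12 with a median of 2.58 and a smallest adjusted p of 0.166. The 6 tested of 8 regions between Grm5 and Ctsc, the cathepsin C gene, had fold changes of 0.32 to 3.32. In the opposite direction, 5 regions beside Irf2bp2, a corepressor gene, had fold changes of -2.74 to -0.67, and 5 regions beside Cblb, a ubiquitin ligase gene that restrains T cell activation, had -4.64 to -0.68. A further 6 regions between Pced1b and Rpap3 were mixed, from -0.93 to 0.81. Regions of a cluster share their chromatin and are not replicates of each other, and no cluster was tested as a whole.

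Inside the antigen receptor loci lay 42 far intergenic regions, since V segments are neither protein-coding nor lncRNA genes in the table, and 36 of them were tested. The 12 regions of Igk, the kappa light chain locus, leaned to B patches, with positive fold changes at 10 of 12 and a median of 2.36. The called one, at chr6:69662504-69662751, averaged 21.2 ± 11.3 normalized CPM in B patches and 0.916 ± 1.49 in T patches (4.46 ± 1.13, adjusted p = 0.0398), and its call held in 2 of the 10 fits that left out 1 library. All 5 tested regions of Tcrb, the T cell receptor beta locus, had negative fold changes, with a median of -2.81. Its called region, at chr6:41118320-41118506, had 0.15, 0, 0, 0 and 1.33 normalized CPM in B patch libraries 1 to 5, against 25.2, 51.4, 13.9, 29.3 and 32.9 in T patch libraries 1 to 5 (-6.42 ± 1.09, adjusted p = 0.00466), and its call held without each library in turn. At Tcra, the T cell receptor alpha locus, 4 of 5 tested regions had negative fold changes and none was called.

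The heavy chain locus Igh leaned the other way from Igk. Of its 13 tested regions, 12 had negative fold changes, that is lower in B patches, with a median of -1.25 and a range of -3.68 to 0.87, and none was called. The region at chr12:115193590-115193931, over the segment Ighv1-54, averaged 12.4 ± 5.99 normalized CPM in B patches and 29.4 ± 7.11 in T patches (-1.25 ± 0.58, adjusted p = 0.364). The region at chr12:115847816-115848077, over Ighv1-76, averaged 1.31 ± 1.52 in B patches and 16.9 ± 7.05 in T patches (-3.68 ± 1.20, adjusted p = 0.126). V segments form families whose members can share sequence, and no source used here states how reads matching several segments were counted, which applies to the regions of Igk, Tcrb and Tcra as well. Without the receptor loci, 25 of 588 tested far intergenic regions were called (4.25%), close to the share with them.

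The promoters of flanking genes were read in the same table. The promoter region of Cxcr4, chr1:128592154-128592744, which covers the whole Cxcr4 window, averaged 93.2 ± 29.1 normalized CPM in B patches and 90.6 ± 29.1 in T patches, a log2 fold change of 0.04 ± 0.30 (adjusted p = 0.987), beside 1.74 ± 0.37 at the called region 112.7 kb away. The region chr17:51832769-51833458, which overlaps the Satb1 window, averaged 119 ± 45.6 in B patches and 112 ± 11.5 in T patches (0.08 ± 0.27, adjusted p = 0.969), beside -3.95 ± 0.94 at its far region. Further promoter regions of Satb1, chr17:51832557-51832705 and chr17:51826579-51826734, had fold changes of -0.60 ± 0.73 and -0.58 ± 0.69 (adjusted p = 0.882 and 0.88). At Prkcq the promoter region, chr2:11172243-11172398, averaged 12.6 ± 12.4 in B patches and 39.1 ± 11.2 in T patches (-1.65 ± 0.61, adjusted p = 0.199), beside -5.51 ± 1.39. The promoter region of Nr4a3, chr4:48044888-48045268, averaged 42.9 ± 23 in B patches and 69.8 ± 20.5 in T patches (-0.71 ± 0.38, adjusted p = 0.485), of opposite sign to its far region. None of these promoter regions passed the test, which does not show that they were alike in B and T patches, and the differences between promoter and far region were not tested.

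The libraries of 100 nuclei entered the count filter, which used all 18 libraries, but not the fit that called these 27 regions in patches. They give a reading from other captures of the same cell labels. Summed over the 14 regions higher in B patches, B libraries 1 to 4 of 100 nuclei had 342, 1187, 840 and 822 CPM of nuclear counts, against 130, 47.5, 0 and 0 in T libraries 1 to 4. Summed over the 13 regions higher in T patches, they had 46.6, 0, 57.8 and 0 in B libraries 1 to 4, against 806, 763, 498 and 653 in T libraries 1 to 4. In both sums the 4 B libraries and the 4 T libraries were wholly apart. T libraries 3 and 4 each had reads at only 2 of the 13 regions higher in T patches. In library 3 these were the S1pr1 region (123 counts) and the called Lef1 region (82 counts). In library 4 they were the S1pr1 region (72 counts) and the Setbp1 region at 146.6 kb (86 counts). T libraries 1 and 2 had reads at 6 and 10 of the 13. Libraries 3 and 4 had reads at only 32 and 33 far intergenic regions in all. This limits what their 0 over the 14 regions higher in B patches can show. The regions at the B cell markers held 0.138 to 0.386% of nuclear counts in B and 0.0215 to 0.121% in T at this size, and those at the T cell markers held 0.165 to 0.229% in B and 0.343 to 0.428% in T. Region by region, the mean was on the same side as in patches at 12 of 12 regions higher in B patches that had reads, and at 11 of 12 of those higher in T patches. Together these were 23 of 24 (95.8%), against 454 of 512 (88.7%) for the other nuclear regions called in patches. The exception was the Satb1 region, which had 29.3, 0, 0 and 0 normalized CPM in B libraries 1 to 4 and 0, 11.8, 0 and 0 in T libraries 1 to 4. At several of the regions on the same side, only 1 library of 100 nuclei had reads. At both Bcl11b regions and those beside Npas2 and Npy, this was T library 2. The called Mef2c region had 2 counts in all, in B library 3. The shares of 95.8% and 88.7% were not matched for level, and their difference was not tested.

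**Figure D4:**
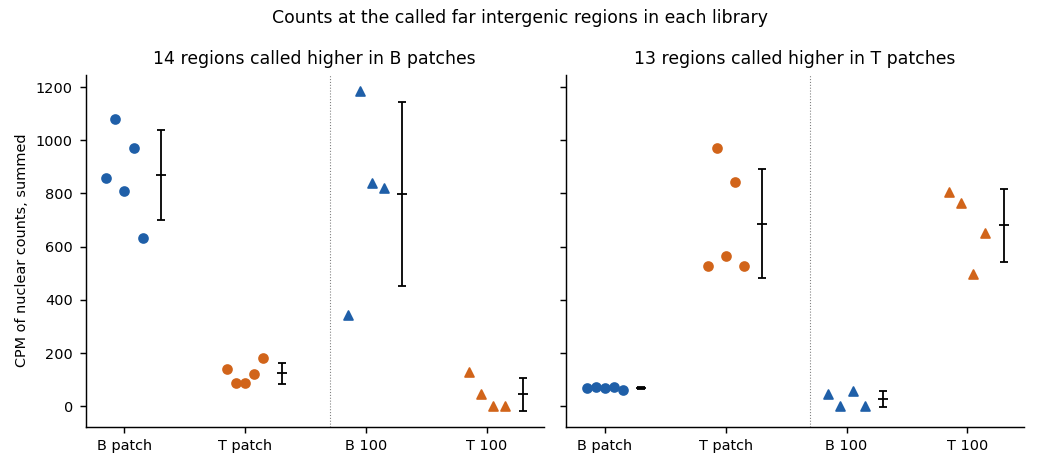
CPM of nuclear counts, summed over the 14 far intergenic regions called higher in B patches (left) and the 13 called higher in T patches (right), for each library, with mean ± SD in black. The patch values chose the regions and are shown for reference; at 100 nuclei, B libraries hold 342 to 1187 and T libraries 0 to 130 on the left, and B libraries 0 to 57.8 and T libraries 498 to 806 on the right.

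Taken singly at 100 nuclei, no far intergenic region was called between B and T, with a smallest adjusted p of 0.356 by edgeR and none called by DESeq2. The background by edgeR was 0.0156% of all tested regions, all mitochondrial. The joint fit of 18 libraries called 193 of 624 (30.9%), beside 27% of all regions in the same fit. At an unadjusted p under 0.05 there were 32 (5.13%), against 5.5% of all tested regions. The S1pr1 region came through most fully, with 0, 0, 16.7 and 0 normalized CPM in B libraries 1 to 4, against 324, 200, 122 and 96.8 in T libraries 1 to 4 (log2 fold change -5.38, adjusted p = 0.356). For a change of the B against T difference with capture size, edgeR called none (background 0%), with a smallest adjusted p of 0.0725 and 172 at an unadjusted p under 0.05 (27.6%, against 27.1% of all tested regions). DESeq2 called 56 of the 302 that it tested (18.5%), beside 15.7% of all regions.

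None of the 6 regions with the highest mean level in patches was called. The first of them, at chr15:68363011-68363683 and 104.1 kb from Zfat, a zinc finger gene, averaged 110 ± 19.6 normalized CPM in B patches and 87.5 ± 25.9 in T patches (0.33 ± 0.28, adjusted p = 0.765). The region at chr4:71291219-71292129, between Megf9 and Gm11232, averaged 132 ± 59.8 in B patches and 61.4 ± 27.1 in T patches (1.09 ± 0.35, adjusted p = 0.11). The region between Pkdcc and Eml4 at chr17:83277453-83277957 averaged 57.5 ± 23.4 in B patches and 85.6 ± 15.6 in T patches (-0.57 ± 0.33, adjusted p = 0.528). A region over the tRNA gene n-TEttc7, at chr7:58398976-58399487, averaged 46.8 ± 16.3 in B patches and 84.2 ± 18 in T patches (-0.85 ± 0.32, adjusted p = 0.215). At 100 nuclei that tRNA region had no reads in any B library, and 63.5, 82.9, 0 and 185 normalized CPM in T libraries 1 to 4.

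The most isolated regions were weak. The farthest, at chr5:79479271-79479380, lay 1530 kb from the nearest protein-coding or lncRNA gene, with the pseudogene Gm18452 at 28 kb, and averaged 8.88 ± 8.46 normalized CPM in B patches and 2.86 ± 2.68 in T patches (1.65 ± 1.35, adjusted p = 0.756). The next 3, beside Kcnt2, Pcdh10 and Cntn5, averaged 3.46, 2.87 and 3.04 normalized CPM in B patches and 10.3, 6.14 and 0.178 in T patches. None was called, that beside Cntn5 had too few counts to be tested, and none of the 4 had reads at 100 nuclei.

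More far intergenic regions had reads in patches than in 100 nuclei. With every library thinned to 241786 nuclear counts, 54.9 to 58.8% of the 873 had reads in B patches, against 10.4 to 19.1% in B 100 nuclei, and 52.2 to 67.5% had reads in T patches, against 3.67 to 15% in T 100 nuclei. The means were 56.5 ± 1.58% in B patches and 13.8 ± 3.72% in B 100 nuclei, and 56.1 ± 6.43% in T patches and 9.19 ± 6.32% in T 100 nuclei (SD, n = 5 and 4). Both differences, 42.7 and 46.9 percentage points, had p = 0.00794 in a two-sided exact permutation test, the smallest that 126 splits allow, and an adjusted p of 0.0238 over 6 tests. Of the regions outside this class, 69.6 to 86.1% had reads in B patches, against 28 to 40.3% in B 100 nuclei, and 67.8 to 83.7% in T patches, against 12.3 to 38.4% in T 100 nuclei. T libraries 3 and 4 of 100 nuclei were the poorest, with reads at 32 and 33 far intergenic regions.

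No far intergenic region had reads in all 8 libraries of 100 nuclei, and 405 (46.4%) had reads in none, against 18.9% of all regions. Those read most often included the region at chr14:16173233-16173786, 64.9 kb from Oxsm, with 49.9 ± 23.5 normalized CPM in B patches and 55.4 ± 9.15 in T patches, and that at chr15:97458728-97459219, 73 kb from Pced1b, with 34.7 ± 18.9 and 66.2 ± 14.1 in the same order. Neither was called between B and T patches (adjusted p = 0.961 and 0.326). As a share of each library, they held 0.962 ± 0.27% of nuclear counts over the B patches and 0.938 ± 0.247% in T patches, and 0.838 ± 0.111% in B 100 nuclei and 0.757 ± 0.168% in T 100 nuclei. None of the 4 differences between these groups passed an exact permutation test (unadjusted p of 0.27 to 0.921, adjusted p of 0.54 to 0.921 over 6 tests).

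**Figure D5:**
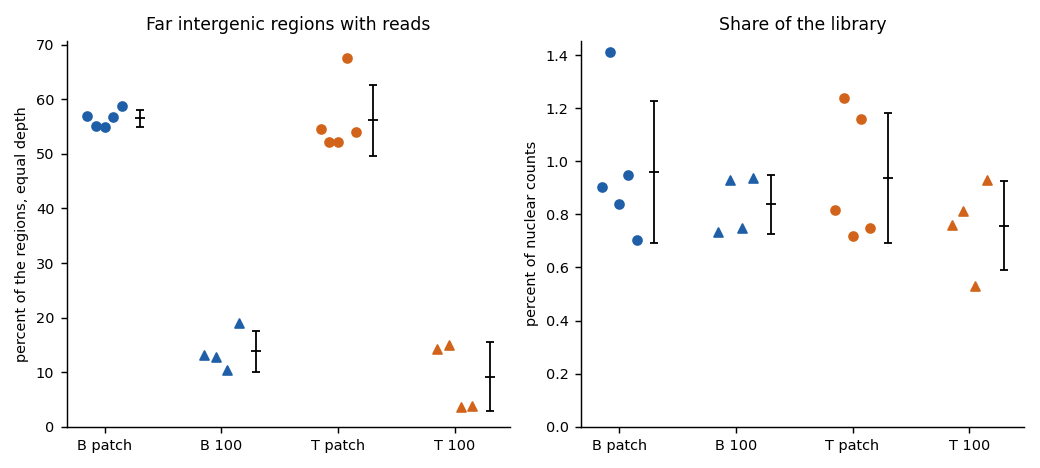
Left, the percent of the 873 far intergenic regions with at least 1 count after thinning every library to 241786 nuclear counts; right, the percent of nuclear counts that fell in them, for each library of B patches, B 100 nuclei, T patches and T 100 nuclei, with mean ± SD in black. Patches lie between 52.2 and 67.5% on the left and 100 nuclei between 3.67 and 19.1%, while the shares on the right overlap.

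Region by region, patches were higher than 100 nuclei at 81 far intergenic regions in B (13% of those tested, background 13.9%) and at 209 in T (33.5%, background 28%), and lower at none (background 0.0117% in each). The share in B is near its background. The median log2 fold change of patches over 100 nuclei over all tested regions was 1.33 in B and 2.07 in T, and 5.08 and 6.27 over far intergenic regions, which includes many with no reads at 100 nuclei, whose fitted values are no measure of size. In B no region was called without patch library 1, 3 or 5. In T the count fell to 93 and 100 without library 3 or 4 of 100 nuclei (14.9 and 16%, against 19.2 and 19.3% of all regions).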

How the data were processed

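The authors deposited raw whole-number counts for 27396 regions in 18 libraries (paired-end ATAC-seq reads of 50 bases, per the labels). The tools named in the submitters' processing notes include MACS2 2.2.7.1, Bowtie2 2.4.5, Trimmomatic 0.36 and Picard, with mm10 as the build. The roles of these tools, the calling of regions and the handling of duplicates and of the transposase offset are not stated there. Coordinates are as in the deposited table.

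Distances were taken to the ends of protein-coding and lncRNA genes in RefSeq's GRCm38.p6 table. Regions past filterByExpr (minimum count 10, 4 groups; 25712) were tested with edgeR 4.0.16 (TMM factors, quasi-likelihood F-test, Benjamini-Hochberg adjustment over all of them), each comparison on its own groups and the change with capture size on all 18. The SE is the fold change over the square root of F. Normalized CPM use TMM factors of the patch fit or of the 100-nuclei fit, and are compared within a capture size only. Fits were tested on simulated data with changes planted only at regions at or above the median level. Far intergenic regions had a median of 5.03 normalized CPM in patches, against 14.2 for all regions, so most were not covered by it. DESeq2 1.42.0 was an alternative. A limit of 3 counts stands for 0.

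Named regions were the called ones (all 27), the 6 highest, the 4 farthest, those beside listed genes, the 6 most read at 100 nuclei and the largest clusters. Others given by value were chosen after their values were seen: the regions at 174.5 kb from Cxcr4, beyond Myc, beside Ebf1 and Bcl11a, the second Ets1 region, the Igh segments and the promoter regions. The members and lists were chosen with earlier results of these data known. Promoter motifs were exact matches. Some marker genes are not reported here.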

Additional observations from a re-analysis of the deposited data

Results flagged for a closer look

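In 56 groups of 4 or 5 libraries, the highest or the lowest library was compared with the rest by Dixon's ratio, and 12 groups had a library far from the others. Chance alone flags about 1 in 20 such groups, and the values of several of these groups are nearly all 0.

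T patch library 4 had reads at 67.5% of the far intergenic regions at equal depth, against 54.6% in the next highest T patch library. Beside Setbp1, library 2 stood apart in both groups. The region at 146.6 kb had 33.8 normalized CPM in B patch library 2 (next 13.8) and 157 in T patch library 2 (next 60.5). The region at 183.3 kb had 61.9 in T patch library 2 (next 28). B patch library 2 also had 88.5 normalized CPM at the Kctd8 region, with the next at 45.8. B patch library 5 had 18.9 at the Stc1 region, with the next lowest at 38.2, and B patch library 4 had 15.1 at the Lef1 region, with the next at 5.44.

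Elsewhere a low value stood out because the rest were at or near 0. B patch library 5 had 0.166 normalized CPM at the Camk1g region, 1.33 at the Tcrb region and 1.99 at the Prkcq region. T patch library 4 had 0.501 at the called Ets1 region, and T patch library 5 had 1.78 at the Nek7 region. Libraries numbered 2 are the shallowest of each patch group, with 1863884 (B) and 1722193 (T) nuclear counts. The part of depth in these values was not tested.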

How the results depend on the processing

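The count of 27 far intergenic regions called between B and T patches was 12 at a distance over 100 kb, which keeps 465 of the 873. It was 90 with DESeq2 (51 higher in B patches, 39 higher in T patches) and 0 in a joint fit of all 18 libraries. With both patch libraries numbered 2 left out, an alternative chosen after seeing the data, it was 47 (25 and 22). In these fits the share called of all regions also moved, to 8.43%, 0% and 4.5%, against 2.27%. Without 1 library the count was 14 to 31, while the share called of all regions was 1.01 to 2.62%. The count was 14 without B patch library 1, 3 or 4 (2.24% of those tested, against 1.01, 1.13 and 1.03% of all regions). It was 15 without T patch library 3 (2.4%, against 1.06%). Of the 27 calls, 11 held in all 10 such fits, 3 in 7 to 9 and 13 in 6 or fewer; from 2 (B patch library 2) to 16 (B patch library 4) were lost without any 1 library. The count was 18 to 31 under genes of any type, RLE factors, library size alone, no filter, a minimum count of 20 and without the mitochondrial regions. In these, 2.16 to 2.6% of all regions were called. Library size alone shifted the median fold change of all tested regions to -0.19, against -0.03, and the split of all calls to 232 higher in B and 362 higher in T patches, against 314 and 269.

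At 100 nuclei, the joint fit called 193 (30.9% of those tested, beside 27% of all regions), against 0 in every fit that left out 1 library. For patches over 100 nuclei in B, 81 (13%, beside 13.9% of all regions) became 33 over 100 kb, which keeps 465 of the 873. It became 38 with RLE factors (6.09%, beside 8.67%) and 52 with library size alone (8.33%, beside 10.3%). At a minimum count of 20 it was 42 of 335 tested (12.5%, beside 13.4%), and with patches thinned 122 (19.6%, beside 18.1%). Without 1 library it was 0 to 117 (51 without B library 3 of 100 nuclei). In T, 209 (33.5%, beside 28%) became 97 over 100 kb and 136 with genes of any type, which keeps 557 regions. It was 124 with library size alone (19.9%, beside 21.7%) and 101 of 335 tested at a minimum count of 20 (30.1%, beside 25.6%). Without 1 library it was 93 to 198. The share called of all regions moved too, over 0 to 19.3% in B and 19.2 to 35.1% in T without 1 library. The change with capture size had 56 calls with DESeq2 (18.5% of those tested, beside 15.7% of all regions) and 0 to 3 without 1 library.

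With the replicate number as a block, the patches had 11 calls (3 higher in B, 8 higher in T), 1.76% against 0.836% of all regions. Patches over 100 nuclei then had 0 in B and 0 in T, against 0.0117% and 0.00778% of all regions. Over all tested regions, the deviations of same-numbered libraries from their group means were nearly uncorrelated (r of -0.0111 to 0.0339). No label pairs these libraries, and such correlations cannot decide whether they share an animal or a section.

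The share of counts in B minus T patches, 0.0242 percentage points, was -0.0891 to 0.1 without 1 library and -0.013 with both libraries numbered 2 left out. Values near 0 changed sign without 1 library at the region beside Rasa1 (-0.18 to 0.13) and beside Oxsm (-0.38 to 0.06). The region beside Pcdh10 moved from -1.08 ± 1.47 to just past 0 (0.00) with both libraries numbered 2 left out. Of 795 alternatives for named regions, 639 kept side and direction, 145 lost the call, 6 gained it and 5 changed sign. The causes were not tested. Counts at 100 nuclei limit single regions most.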
